A study of Mus musculus with 20 samples.

Results

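The genes described here are 31 mouse genes that cells switch on in response to type I interferon, taken by symbol from a list of known targets that uses no value of these samples but was drawn up with earlier results of them known. Of the 31, 27 had a microarray probe set that named them and no other gene, and these 27 were compared as part of 17097 genes measured in dermal fibroblasts of young mice, of old mice on a normal diet, and of old mice that had been calorically restricted early or late. Isg15, Bst2, Oas1a and Ifi44 were not analysed here because no probe set named them alone.

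Type I interferons (interferon alpha and beta) bind a receptor shared by nearly all cells, whose kinases activate a complex that contains STAT2 and IRF9. The complex binds the interferon-stimulated response element, a short DNA sequence near the start of its target genes, and turns on antiviral effectors, sensors of foreign nucleic acid, more of its own transcription factors, and the feedback inhibitor USP18. Fibroblasts carry the receptor, keep a low level of the response at rest and can both make interferon beta and respond to it, and a raised level of these genes is one of the features described in senescent cells and ageing tissues.

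The samples were 20 female mice in 4 groups of 5, one array per mouse. ND - Young mice entered at 4 weeks of age and ate a normal diet without limit for 4 weeks. The other 3 groups entered at 9 months and were killed at 18 months. ND - Old mice ate the normal diet for all 9 months. ND/CR - Old mice had 2 months of normal diet and then 7 months of 30% caloric restriction, so they were restricted when killed, and CR/ND - Old mice went through the same 7 months of restriction before they returned to the normal diet for 2 months. No restricted young group and no strain is given in the labels, age differs together with time on the diet between ND - Young and the rest, and the mice of a group are described as biological replicates. Skin freed of the subdermis was digested, and cells were sorted that carried Pdgfra and CD34 but none of EpCam, CD45, CD31, CD117 or CD24, with RNA from 10000 cells amplified over 20 cycles. In such bulk samples fewer cells of a type and less RNA per cell cannot be told apart.

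Each value is a log2 level from the deposited table, so a difference of 1 is a 2-fold difference, and a gene was called where limma's moderated test gave an adjusted p (Benjamini-Hochberg over all 17097 genes) below 0.05. The table carries no detection call, and array levels of different genes are not comparable as amounts of RNA, so levels are given for comparison between samples of the same gene. Deposited values run from 2.71 to 13.46. The array titles carry 2 separate runs of numbers, here called run 1 (13 arrays) and run 2 (7 arrays), whose meaning the labels do not state. ND - Young, ND - Old and CR/ND - Old had 3 and 2 arrays in them and ND/CR - Old had 4 and 1, so every comparison is also given with the run as a block (run-adjusted) or within a run where that matters. Replicates 1 to 3 (1 to 4 in ND/CR - Old) belong to run 1. With groups held constant, 5.73% of all genes were higher and 11.4% lower in run 2. Array medians over all probe sets lay between 5.27 and 5.34.

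Of the 23 members with an entry in the RefSeq promoter table (assembly GRCm38.p6, 250 bases before to 50 after the annotated start), 12 (52.2%) held the core of the interferon-stimulated response element, GAAANNGAAA on either strand, against 1079 of 27025 genes (3.99%) and 1131 of 32851 promoters (3.44%) of the table. Among the 19 of them that were measured, 9 held it. The gamma-activated site TTCNNNGAA, the element known from genes that respond to interferon gamma, was in 6 of the 23 (26.1%), against 2582 of 27025 genes (9.55%) and 8.3% of promoters. Matches of the 2 motifs were counted separately, overlaps included. The 4 promoters below belong to members whose values are given on every array and hold the core, which is in capitals, and the promoter of Cmpk2, the member with the smallest p for any difference among the groups, follows them as one that does not hold it. All read 5′ to 3′ in the direction of the gene. Ifit3 (chr19:34583279-34583578, plus strand) has 2 matches, 156 and 122 bases before the start. Rsad2 (chr12:26456403-26456702, minus strand) has 1 match, 120 bases before it. In Ifih1 (chr2:62646206-62646505, minus strand) and Ifitm3 (chr7:141010695-141010994, minus strand) the matches lie after the start. Cmpk2 (chr12:26468965-26469264, plus strand), which lies next to Rsad2, has none in this window.
Ifit3: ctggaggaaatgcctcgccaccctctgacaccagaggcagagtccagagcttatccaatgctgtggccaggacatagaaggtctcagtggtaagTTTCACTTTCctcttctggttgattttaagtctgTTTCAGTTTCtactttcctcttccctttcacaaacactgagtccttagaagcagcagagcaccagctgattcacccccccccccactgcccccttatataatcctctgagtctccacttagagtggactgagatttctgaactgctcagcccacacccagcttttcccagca
Rsad2: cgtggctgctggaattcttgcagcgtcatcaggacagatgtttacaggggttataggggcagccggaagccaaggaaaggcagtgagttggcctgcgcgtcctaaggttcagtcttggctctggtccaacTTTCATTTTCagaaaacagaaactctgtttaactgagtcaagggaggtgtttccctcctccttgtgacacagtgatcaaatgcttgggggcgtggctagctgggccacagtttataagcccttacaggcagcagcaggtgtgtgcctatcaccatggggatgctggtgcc
Ifih1: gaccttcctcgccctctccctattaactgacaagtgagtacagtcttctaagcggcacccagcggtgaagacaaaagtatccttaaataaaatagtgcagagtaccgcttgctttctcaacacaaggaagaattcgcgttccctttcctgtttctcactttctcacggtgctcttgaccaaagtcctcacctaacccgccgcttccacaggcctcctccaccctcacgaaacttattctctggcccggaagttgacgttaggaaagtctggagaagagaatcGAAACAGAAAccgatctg
Ifitm3: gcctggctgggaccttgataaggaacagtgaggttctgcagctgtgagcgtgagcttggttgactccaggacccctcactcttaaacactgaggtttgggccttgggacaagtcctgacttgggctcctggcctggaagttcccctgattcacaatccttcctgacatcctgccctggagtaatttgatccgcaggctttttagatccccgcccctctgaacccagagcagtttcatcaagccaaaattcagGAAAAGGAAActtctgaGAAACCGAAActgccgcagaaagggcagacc
Cmpk2: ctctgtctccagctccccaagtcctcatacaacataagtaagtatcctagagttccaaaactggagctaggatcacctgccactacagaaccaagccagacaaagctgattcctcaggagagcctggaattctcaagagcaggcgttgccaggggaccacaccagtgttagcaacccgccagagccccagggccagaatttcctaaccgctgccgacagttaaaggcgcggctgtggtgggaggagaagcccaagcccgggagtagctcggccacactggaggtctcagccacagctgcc
A match describes the letters of the window and does not show that the site is used in these cells. The core was in the printed promoter windows of Ifit3, Rsad2 and Ifih1, which were called in some comparison, and in that of Ifitm3, which was called in none. It was also in the windows of Ifit1, Eif2ak2, Oas3, Stat2 and Ddx58, none of which was called with all arrays and no block. No core was found in the windows of Ifit2, Herc6, Cmpk2, Oasl2, Irf7 and Irf9, all of which were called in at least 1 comparison. Nor was it found in those of Trim25, Oasl1, Ifi35 and Xaf1, which were not called with all arrays and no block.

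Across the 4 groups, the members were lowest on average in the young mice. The group mean was lowest in ND - Young for 18 of the 27 members (66.7%), where 31.7% of all genes were lowest, and lowest in CR/ND - Old for none (17.6% of all genes). The highest mean was in ND/CR - Old for 15 members (55.6%, against 27.2% of all genes) and in CR/ND - Old for 9 (33.3%, against 17.4%). It was in ND - Young for 3 (11.1%, against 31.7%) and in ND - Old for none (23.7% of all genes). These orders carry no test of their own. A moderated F-test for any difference among the 4 groups called 8 members (Ifit2, Ifit3, Usp18, Mx2, Cmpk2, Oasl2, Irf7 and Irf9), where it called 12.9% of all genes. In all, 15 members (55.6%) were called neither by the F-test nor in any of the 6 pairwise comparisons, against 81.6% of all genes.

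**Figure D1:**
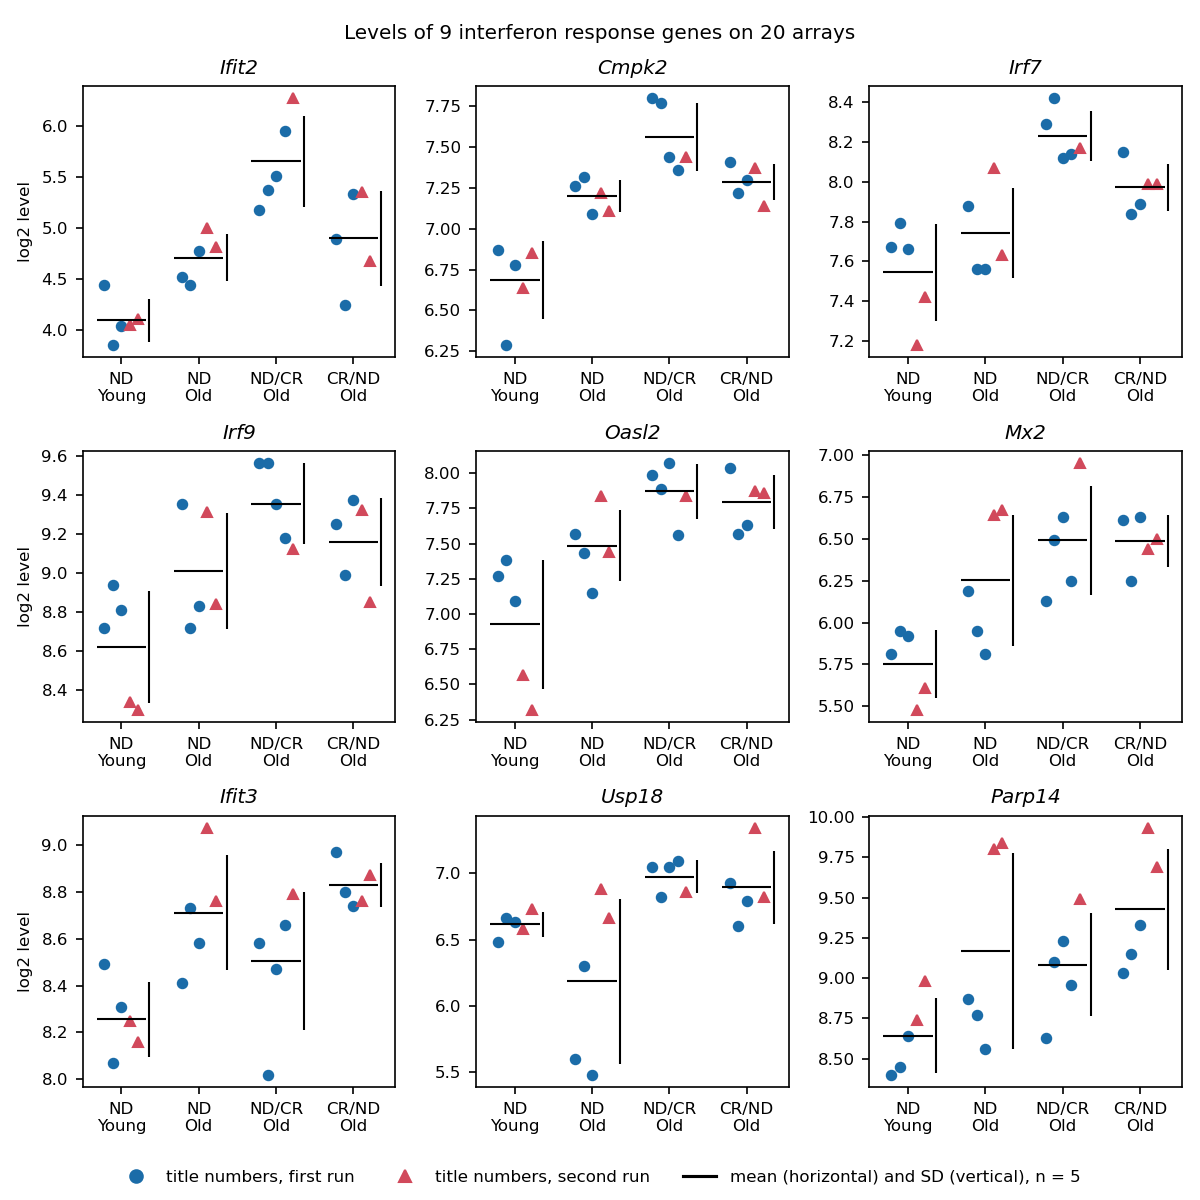
Deposited log2 level (y axis) of 9 members on each of the 20 arrays, by group (x axis); circles and triangles are runs 1 and 2 of the title numbers, and lines give the mean and SD of 5 arrays. The ND/CR - Old arrays of Ifit2 (5.18 to 6.27) lie above those of ND - Old (4.44 to 5.00), and the run 2 arrays of Parp14 in ND - Old (9.80 and 9.84) lie above those of run 1 (8.56 to 8.87).

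Age was addressed by setting ND - Old against ND - Young, both on the normal diet throughout. Of the 27 members 3 rose with age (Ifit3, Cmpk2 and Oasl2) and none fell, where 4.45% of all genes rose and 6.49% fell. The middle member differed by 0.14 and the middle gene by 0.00, and 19 of 27 members were higher in the old mice. With the run as a block 6 members rose and none fell (15.0% of all genes called in either direction), Ifit2, Mx2 and Parp14 being the 3 added. Of these 6, Cmpk2, Ifit3 and Parp14 were kept without each array in turn. Ifit2, Mx2 and Oasl2 were lost in 5 or 6 of 20 such fits. The differences ranged from -0.43 (Usp18) to 0.61 (Ifit2). Without the block, the calls of Ifit3 and Oasl2 turned on single arrays. That of Cmpk2 was kept without each array in turn (adjusted p of 0.00217 to 0.00834). Without ND/CR - Old replicate 5, which enters through the shared spread, 5 members rose. Without ND - Young replicate 5 Cmpk2 rose and Zbp1 fell by 0.40 (adjusted p = 0.0392), and without ND - Old replicate 4 Cmpk2 rose and Usp18 fell by 0.61 (adjusted p = 0.0399), Ifit3 and Oasl2 being lost in both. In run 1 alone Cmpk2 rose (0.58, adjusted p = 0.0320) and Usp18 and Zbp1 fell, and in run 2 alone 11 members rose, where 8.74% and 6.14% of all genes were called in either direction.

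Restriction late in life was addressed by ND/CR - Old against ND - Old, at the same age. Ifit2, Usp18 and Irf7 rose in the restricted mice and no member fell, where 1.57% of all genes rose and 0.819% fell. The middle member was 0.21 higher, the middle gene 0.00 higher, and 19 of 27 members were higher. The run-adjusted fit called 4 members, all higher, adding Eif2ak2 (4.16% of all genes in either direction). The count was 1 without ND - Old replicate 3 or without ND/CR - Old replicate 1, 2 or 4. Since ND/CR - Old had a single array in run 2, its values within that run rest on 1 mouse, and none of the 3 calls stood there (Ifit2 1.36 with adjusted p = 0.241, Usp18 0.09 and Irf7 0.32, both 0.997).

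For restriction that had ended 2 months before, CR/ND - Old was set against ND - Old. No member passed limma's threshold, and hardly any gene did (0.00585% rose and 0.00% fell, or 0.0468% in either direction with the run as a block, again without a member). At an unadjusted p below 0.05 there were 3 members (11.1%, against 5.08% of all genes), namely Usp18 (0.71 ± 0.20 SE higher, adjusted p = 0.587), Zbp1 (0.38 ± 0.12, adjusted p = 0.783) and Rsad2 (0.50 ± 0.22, adjusted p = 0.930). In a fit of run 1 alone Usp18 was called (0.98, adjusted p = 0.0473). By direction alone 25 of 27 members were higher in CR/ND - Old, with a middle difference of 0.17 against 0.00 over all genes. The 95% intervals of the members spanned -0.50 to 1.13 in all.

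The restriction schedules themselves were compared by CR/ND - Old against ND/CR - Old. No member passed, with 4 at an unadjusted p below 0.05, or 14.8% against 9.79% of all genes (0.123% of all genes rose, 0.211% fell, and 0.702% were called either way with the run as a block, none a member). Ifit2 was 0.76 ± 0.21 lower in CR/ND - Old (95% interval -1.18 to -0.33, adjusted p = 0.126), Cmpk2 0.27 ± 0.11 lower and Ifit3 0.32 ± 0.13 higher (both adjusted p = 0.363). With array weights Ifit2 was called (-0.81, adjusted p = 0.0473), as it was with the run as a block when any of 5 arrays was left out (-0.96 to -0.81, adjusted p of 0.0165 to 0.0494). The middle member differed by -0.01, with 12 of 27 higher.

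Against ND - Young, which all 3 comparisons with young mice share, members also rose in both groups of mice with a history of restriction. In ND/CR - Old 8 rose (Ifit2, Herc6, Mx2, Cmpk2, Oasl2, Irf7, Irf9 and Ifih1) and none fell, where 7.11% of all genes rose and 5.56% fell, and the middle member was 0.25 higher. In CR/ND - Old 9 rose (Ifit2, Ifit3, Mx2, Rsad2, Cmpk2, Oasl2, Irf7, Irf9 and Parp14) and none fell, where 3.22% of genes rose and 3.82% fell, and the middle member was 0.37 higher. The block on run gave 9 and 13 members, all higher (15.2% and 10.3% of all genes in either direction). It added Parp14 in ND/CR - Old, and Ifit1, Herc6, Trim25 and Ifih1 in CR/ND - Old. Without the block 5 members were called in CR/ND - Old when ND - Young replicate 4 or CR/ND - Old replicate 3 or 4 was left out, and with it 8 were called without ND - Young replicate 4. These 2 comparisons mix age with diet history and share their controls with the age comparison. The direct old-against-old comparisons above called 3 members and none.

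**Figure D2:**
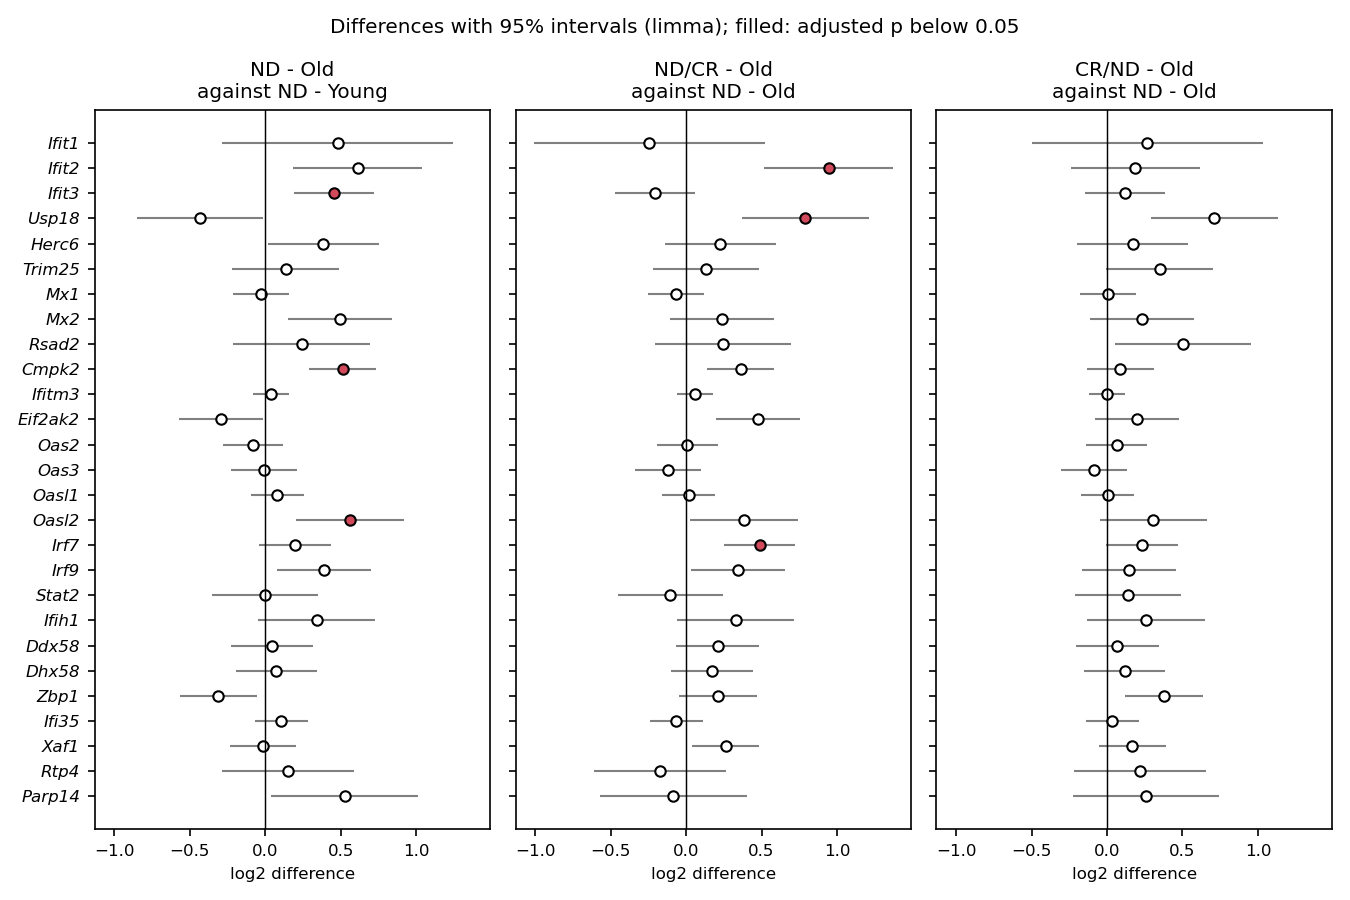
Difference in log2 level (x axis, point with its 95% interval from limma) of each of the 27 members (rows) in ND - Old against ND - Young, ND/CR - Old against ND - Old and CR/ND - Old against ND - Old; filled points mark adjusted p below 0.05. The 6 filled points all lie to the right of 0, from 0.45 (Ifit3) to 0.94 (Ifit2), and there is none in the last comparison.

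The IFIT proteins bind foreign RNA, among it RNA without the methylated cap of the cell's own messages, and their 3 genes lie in one cluster on chromosome 19. Ifit2 levels were 4.44, 3.86, 4.04, 4.05 and 4.11 on the ND - Young arrays and 4.52, 4.44, 4.78, 5.00 and 4.82 on the ND - Old arrays. They were 5.18, 5.37, 5.51, 5.95 and 6.27 in ND/CR - Old and 4.89, 4.25, 5.33, 5.35 and 4.68 in CR/ND - Old. Every ND/CR - Old array was above every ND - Old and ND - Young array, while CR/ND - Old overlapped with both other old groups. ND/CR - Old averaged 5.66 ± 0.45 (SD, n = 5) against 4.71 ± 0.23 in ND - Old and 4.10 ± 0.21 in ND - Young. That is 0.94 ± 0.21 (SE) above ND - Old, or 1.92-fold (adjusted p = 0.0178), and 1.56 ± 0.21 above ND - Young, or 2.94-fold (adjusted p = 2.85e-05). CR/ND - Old averaged 4.90 ± 0.46, which is 0.80 above ND - Young (adjusted p = 0.0197). The ND - Young mean of 4.10 was below the lower quartile of gene levels (4.54), and the table carries no detection call. The age difference of 0.61 ± 0.21 had an adjusted p of 0.0616, and of 0.0328 with the run as a block, a call lost in 6 of 20 fits that left out 1 array (adjusted p up to 0.0831). Without ND/CR - Old replicate 4 the difference from ND - Old was 0.87 (adjusted p = 0.0558). The CR/ND - Old difference from young mice also lost its call without ND - Young replicate 2 (0.74, adjusted p = 0.0602), without CR/ND - Old replicate 3 (0.69, 0.0700) or replicate 4 (0.69, 0.0588), and within run 1 (0.71, 0.135). With the run as a block this call was kept without each array in turn (adjusted p up to 0.0320). So was that of ND/CR - Old against ND - Old (up to 0.0220).

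Ifit3, whose product works together with IFIT1 and whose probe set may also detect the near-identical copy Ifit3b, read 8.49, 8.07, 8.31, 8.25 and 8.16 in ND - Young and 8.41, 8.73, 8.58, 9.07 and 8.76 in ND - Old. The values were 8.58, 8.02, 8.47, 8.66 and 8.79 in ND/CR - Old and 8.97, 8.80, 8.74, 8.76 and 8.87 in CR/ND - Old. CR/ND - Old lay above all young arrays, and ND/CR - Old overlapped with them. Ifit3 rose by 0.45 ± 0.13 with age, or 1.37-fold (8.26 ± 0.16 to 8.71 ± 0.24, adjusted p = 0.0227), and was 0.57 ± 0.13 higher in CR/ND - Old than in ND - Young (adjusted p = 0.00676). The age call was lost without ND - Young replicate 2 (0.41, adjusted p = 0.0692), ND - Young replicate 5 (0.43, 0.0566) or ND - Old replicate 4 (0.36, 0.0681). With the run as a block it was kept without each array in turn (adjusted p up to 0.0486). Within run 1 the age difference was 0.28 (adjusted p = 0.332) and within run 2 0.71 (0.0134), and the CR/ND - Old difference within run 1 was 0.55 (0.0677).

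Ifit1, whose product binds uncapped and incompletely capped RNA, differed by run and was called in no group comparison. It read 6.29, 6.29, 5.92, 6.46 and 6.79 in ND - Young, 6.42, 6.10, 5.96, 8.12 and 7.56 in ND - Old, 5.97, 6.58, 6.57, 6.13 and 7.68 in ND/CR - Old, and 6.68, 6.73, 6.88, 7.53 and 7.68 in CR/ND - Old. In each group the arrays of run 2 were the highest. Run 2 was 1.06 ± 0.15 higher with groups held constant (adjusted p = 0.000126). The age difference of 0.48 ± 0.37 was not called (adjusted p = 0.491), being -0.01 within run 1 and 1.22 within run 2 (adjusted p = 0.00384 there). In CR/ND - Old against ND - Young the difference of 0.75 ± 0.37 had an adjusted p of 0.273, and of 0.0149 with the run as a block (0.0521 in 1 of 20 fits without 1 array).

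The ubiquitin-like modifier pathway attaches ISG15 to proteins, with HERC6 as its main ligase in the mouse and USP18 as the protease that removes it, and USP18 also sits on the interferon receptor and damps its signal. Usp18 levels were 6.48, 6.66, 6.63, 6.58 and 6.73 in ND - Young and 5.60, 6.30, 5.48, 6.88 and 6.66 in ND - Old. They were 7.05, 6.82, 7.05, 7.09 and 6.86 in ND/CR - Old and 6.93, 6.60, 6.79, 7.34 and 6.82 in CR/ND - Old. The ND - Old arrays of run 1 lay below every other array of this gene and those of run 2 did not. The age difference was -0.43 ± 0.20 (adjusted p = 0.202), being -0.80 within run 1 (adjusted p = 0.0102) and 0.12 within run 2 (0.855), and Usp18 fell with age by 0.61 without ND - Old replicate 4 (adjusted p = 0.0399). ND/CR - Old was 0.79 ± 0.20 above ND - Old, or 1.73-fold (6.97 ± 0.12 against 6.18 ± 0.62, adjusted p = 0.0409). This difference was 1.21 within run 1 (adjusted p = 0.00155) and 0.09 within run 2 (adjusted p = 0.997). It was lost when any of 9 arrays was left out, with differences of 0.61 to 0.83 and adjusted p up to 0.111. Those arrays were ND - Young replicates 2 and 3, ND - Old replicates 1, 2 and 3, and ND/CR - Old replicates 1, 2, 3 and 4. It was also lost when only these 2 groups entered the fit (adjusted p = 0.146) or the arrays were quantile normalised once more (0.0571). With the run as a block the call was kept without each array in turn (adjusted p of 0.00257 to 0.0340).

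Herc6 read 6.01, 5.38, 6.01, 5.81 and 5.68 in ND - Young, 5.96, 5.73, 5.77, 6.82 and 6.53 in ND - Old, 6.39, 6.56, 6.39, 6.18 and 6.42 in ND/CR - Old, and 6.23, 6.04, 6.34, 6.47 and 6.58 in CR/ND - Old. Both groups with a history of restriction lay wholly above ND - Young, whereas ND - Old split by run. Herc6 was 0.61 ± 0.18 higher in ND/CR - Old than in ND - Young (adjusted p = 0.0248), and 0.55 ± 0.18 higher in CR/ND - Old (adjusted p = 0.0636, or 0.0214 with the run as a block, lost there in 4 of 20 fits without 1 array). The first of these lost its call without ND - Young replicate 2 (0.51, adjusted p = 0.0766), ND - Young replicate 5 (0.59, 0.0575) or ND/CR - Old replicate 2 (0.57, 0.0613), and within run 2 (0.68, 0.0619). With the run as a block it was kept without each array in turn (adjusted p up to 0.0182). Trim25, a ubiquitin ligase that supports signalling by the RNA sensor RIG-I, ranged from 6.40 to 6.99 in ND - Young and from 6.87 to 7.59 in CR/ND - Old. Its difference of 0.49 ± 0.17 between these groups was called with the run as a block alone (adjusted p = 0.0154, against 0.0966 without), and that call was lost in 2 of 20 fits without 1 array.

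Among the antiviral effectors, Cmpk2 was above the young level in every old group. It encodes a mitochondrial nucleotide kinase, and its neighbour Rsad2 encodes viperin, which makes a chain-terminating nucleotide. Cmpk2 levels were 6.87, 6.29, 6.78, 6.64 and 6.85 in ND - Young and 7.26, 7.32, 7.09, 7.22 and 7.11 in ND - Old. They were 7.80, 7.77, 7.44, 7.36 and 7.44 in ND/CR - Old and 7.41, 7.22, 7.30, 7.37 and 7.14 in CR/ND - Old. All 15 old arrays were above all 5 young arrays. Cmpk2 rose by 0.51 ± 0.11 with age, or 1.43-fold (6.69 ± 0.24 to 7.20 ± 0.10, adjusted p = 0.00265), by 0.88 ± 0.11 in ND/CR - Old against ND - Young, or 1.84-fold (adjusted p = 1.07e-05), and by 0.60 ± 0.11 in CR/ND - Old, or 1.52-fold (adjusted p = 0.00107). None of these 3 calls was lost when any single array was left out, and within run 2, with 2 arrays or fewer a group, they had adjusted p of 0.118, 0.0542 and 0.0789. ND/CR - Old was 0.36 ± 0.11 above ND - Old without overlap but was not called (adjusted p = 0.0807). Another Cmpk2 probe set gave 0.54 for that comparison (adjusted p = 0.0301 in the fit over every probe set).

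Rsad2 read 7.02, 6.10, 6.35, 6.21 and 6.29 in ND - Young, 6.40, 6.94, 6.21, 6.93 and 6.70 in ND - Old, 7.01, 6.54, 6.81, 6.72 and 7.32 in ND/CR - Old, and 7.16, 6.47, 7.15, 7.05 and 7.87 in CR/ND - Old. The groups overlapped in every pair. CR/ND - Old was 0.75 ± 0.22 above ND - Young (adjusted p = 0.0405). That call was lost when any of 9 arrays was left out (0.56 to 0.77, adjusted p up to 0.114), namely ND - Young replicates 2 to 5, ND/CR - Old replicate 3 and CR/ND - Old replicates 1, 3, 4 and 5. It was lost as well within run 1 (0.44, adjusted p = 0.412), with the mean of the gene's probe sets (0.35, 0.0672), and under 4 other settings (0.58 to 0.75, adjusted p of 0.0514 to 0.0901). With the run as a block it was lost in 6 of 20 fits without 1 array.

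The Mx proteins are GTPases that block virus replication. Mx2 levels were 5.81, 5.95, 5.92, 5.48 and 5.61 in ND - Young and 6.19, 5.95, 5.81, 6.64 and 6.67 in ND - Old. They were 6.13, 6.49, 6.63, 6.25 and 6.95 in ND/CR - Old and 6.61, 6.25, 6.63, 6.44 and 6.50 in CR/ND - Old. Both groups with a history of restriction lay wholly above ND - Young, and ND - Old reached down into the young range in run 1 only. The mean difference from ND - Young was 0.74 ± 0.17 in ND/CR - Old, or 1.67-fold (adjusted p = 0.00449), and 0.73 ± 0.17 in CR/ND - Old (adjusted p = 0.00795). The age difference of 0.50 ± 0.17 had an adjusted p of 0.0584, and of 0.0357 with the run as a block, a call lost in 5 of 20 fits that left out 1 array (adjusted p up to 0.115). Mx1 ranged from 4.60 to 5.13 over all 20 arrays with no call.

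Ifitm3, a membrane protein that hinders virus entry, stayed within a narrow range in all groups. It read 11.88, 11.94, 11.89, 11.88 and 11.94 in ND - Young, 12.01, 12.00, 11.78, 11.96 and 11.96 in ND - Old, 11.95, 12.01, 12.02, 11.96 and 12.06 in ND/CR - Old, and 11.94, 11.92, 12.01, 12.03 and 11.80 in CR/ND - Old. The groups overlapped throughout, the means being 11.91, 11.94, 12.00 and 11.94 in the same order, and no comparison was called. Eif2ak2 encodes PKR, a kinase that stops translation when it meets double-stranded RNA. It ranged from 4.99 to 5.49 in ND - Old and from 5.30 to 5.97 in ND/CR - Old, a difference of 0.48 ± 0.13 with an adjusted p of 0.0646, or 0.0401 with the run as a block, where leaving out 1 array ended the call in 8 of 20 fits (adjusted p up to 0.128).

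The oligoadenylate synthetases make the second messenger that activates RNase L, and OASL2 is a relative of theirs with ubiquitin-like domains. Oasl2 read 7.27, 7.38, 7.09, 6.57 and 6.32 in ND - Young and 7.57, 7.43, 7.15, 7.84 and 7.44 in ND - Old. It read 7.99, 7.89, 8.07, 7.56 and 7.84 in ND/CR - Old and 8.04, 7.57, 7.63, 7.87 and 7.86 in CR/ND - Old. The 2 groups with a history of restriction lay wholly above ND - Young, whose lowest arrays were those of run 2. Oasl2 rose by 0.56 ± 0.17 with age, or 1.47-fold (6.93 ± 0.46 to 7.49 ± 0.25, adjusted p = 0.0381, or 0.0273 with the run as a block, lost there in 5 of 20 fits without 1 array). It was 0.94 ± 0.17 higher in ND/CR - Old, or 1.92-fold (adjusted p = 0.000736), and 0.87 ± 0.17 higher in CR/ND - Old than in ND - Young (adjusted p = 0.00261). The age difference was 0.14 within run 1 (adjusted p = 0.689) and 1.20 within run 2 (adjusted p = 0.00155). Its call was lost without ND - Young replicate 4 or 5 or ND - Old replicate 1, 2, 4 or 5 (0.41 to 0.57, adjusted p up to 0.116), with array weights (adjusted p = 0.0814), with median-centred arrays (0.0507), and with only these 2 groups in the fit (0.126). The CR/ND - Old difference within run 1 was 0.50 (adjusted p = 0.0968).

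Oas2, Oas3 and Oasl1 were not called in any comparison. Oas2 ranged from 5.72 to 6.27, Oas3 from 4.74 to 5.49 and Oasl1 from 4.03 to 4.47 over the 20 arrays. Every Oasl1 value was below the lower quartile of gene levels (4.54), where expression cannot be told from background without a detection call. The group means of Oas2 lay within 5.87 to 5.95 and those of Oasl1 within 4.18 to 4.28.

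Of the transcription factors, IRF7 amplifies the response by driving further interferon genes, and IRF9 and STAT2 are subunits of the complex that reads the response element. Irf7 levels were 7.67, 7.79, 7.66, 7.18 and 7.42 in ND - Young and 7.88, 7.56, 7.56, 8.07 and 7.63 in ND - Old. They were 8.29, 8.42, 8.12, 8.14 and 8.17 in ND/CR - Old and 8.15, 7.84, 7.89, 7.99 and 7.99 in CR/ND - Old. Every ND/CR - Old array was above every array of ND - Old and ND - Young. Irf7 was 0.49 ± 0.11 higher in ND/CR - Old than in ND - Old, or 1.40-fold (8.23 ± 0.13 against 7.74 ± 0.23, adjusted p = 0.0255), and 0.68 ± 0.11 higher than in ND - Young, or 1.61-fold (adjusted p = 0.000309). CR/ND - Old was 0.43 ± 0.11 above ND - Young (adjusted p = 0.0243). The call against ND - Old was lost without ND - Old replicate 2 (0.44, adjusted p = 0.0598) or 3 (0.44, 0.0697), without ND/CR - Old replicate 1 (0.47, 0.0589) or 2 (0.44, 0.0748), and with only these 2 groups in the fit (0.0542). The CR/ND - Old call was lost without ND - Young replicate 4 (0.34, adjusted p = 0.0692) or 5 (0.40, 0.0628) or CR/ND - Old replicate 1 (0.38, 0.0649), and was 0.25 (0.285) within run 1. With the run as a block, leaving out 1 array ended the call against ND - Old in 3 of 20 fits. It ended the CR/ND - Old call in 1 of 20.

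Irf9 read 8.72, 8.94, 8.81, 8.34 and 8.30 in ND - Young, 9.35, 8.72, 8.83, 9.31 and 8.84 in ND - Old, 9.56, 9.56, 9.35, 9.18 and 9.12 in ND/CR - Old, and 9.25, 8.99, 9.37, 9.32 and 8.85 in CR/ND - Old. ND/CR - Old lay wholly above ND - Young and the other old groups overlapped with it. It was 0.73 ± 0.15 higher in ND/CR - Old than in ND - Young, or 1.66-fold (adjusted p = 0.00224), and 0.53 ± 0.15 higher in CR/ND - Old (adjusted p = 0.0336). The second of these was lost without ND - Young replicate 4 or 5 or CR/ND - Old replicate 1, 3 or 4 (0.45 to 0.51, adjusted p up to 0.102), and it was 0.38 (adjusted p = 0.226) within run 1 and 0.77 (0.0541) within run 2. With the run as a block it was lost in 2 of 20 fits without 1 array. Within run 2 the ND/CR - Old difference was 0.80 (adjusted p = 0.103). Stat2 ranged from 7.68 to 8.70 with no group call, and was 0.37 higher in run 2 (adjusted p = 0.0111).

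Among the sensors, IFIH1 (MDA5) and DDX58 (RIG-I) detect viral RNA, DHX58 (LGP2) tunes them, and ZBP1 binds Z-form nucleic acid and can start cell death. Ifih1 levels were 7.14, 7.38, 7.56, 7.53 and 7.61 in ND - Young and 7.50, 7.60, 7.19, 8.43 and 8.20 in ND - Old. They were 7.87, 8.11, 8.06, 8.05 and 8.47 in ND/CR - Old and 7.70, 7.83, 8.16, 8.22 and 8.31 in CR/ND - Old. The groups with a history of restriction lay above all young arrays, and ND - Old was split by run. ND/CR - Old was 0.67 ± 0.19 higher than ND - Young, or 1.59-fold (adjusted p = 0.0205), and CR/ND - Old 0.60 ± 0.19 higher (adjusted p = 0.0574, or 0.00265 with the run as a block). The ND/CR - Old call was lost without ND - Young replicate 1 (0.59, adjusted p = 0.0585) or ND/CR - Old replicate 5 (0.58, 0.0562). With the run as a block it was kept without each array in turn (adjusted p up to 0.000909).

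Ddx58, Dhx58 and Zbp1 were not called on the probe sets used for the comparison, but 2 of them were on 1 of their 3 probe sets. One other Dhx58 probe set rose by 0.40 with age (adjusted p = 0.00635), by 0.62 in ND/CR - Old against ND - Young (0.000111) and by 0.37 in CR/ND - Old (0.0178), where the one used gave 0.07, 0.24 and 0.19 and the third gave 0.08, 0.12 and 0.0020 (adjusted p of 0.439 to 0.994), none of them called. One other Ddx58 probe set was 0.45 higher in ND/CR - Old than in ND - Old (adjusted p = 0.0130), against 0.21 on the one used and -0.02 on the third (adjusted p = 0.973). The probe sets of these genes disagree, and which transcripts they detect was not tested. For Dhx58 the choice was close, with a mean level of 5.231 on the probe set used and 5.225 on the called one. The third Dhx58 probe set had a mean of 3.533, below the lower quartile of gene levels (4.54). With the mean of the gene's probe sets Dhx58 was called in ND/CR - Old against ND - Young only (0.33, adjusted p = 0.00287). Zbp1 was 0.31 ± 0.12 lower in ND - Old than in ND - Young (adjusted p = 0.123), with -0.65 in run 1 (adjusted p = 0.00465 in a fit of that run) and 0.20 in run 2.

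Of the remaining members, PARP14 is a mono-ADP-ribosyltransferase, RTP4 a chaperone-like protein that acts against some viruses, XAF1 a promoter of cell death, and IFI35 a partner of NMI. Parp14 read 8.40, 8.45, 8.64, 8.74 and 8.98 in ND - Young, 8.87, 8.77, 8.56, 9.80 and 9.84 in ND - Old, 8.63, 9.10, 9.23, 8.96 and 9.49 in ND/CR - Old, and 9.03, 9.15, 9.33, 9.93 and 9.69 in CR/ND - Old. CR/ND - Old lay above all young arrays, and the ND - Old arrays of run 2 stood above those of run 1. The CR/ND - Old difference from ND - Young was 0.78 ± 0.23, or 1.72-fold (adjusted p = 0.0459, or 0.000336 with the run as a block). Without the block it was lost when any of 10 arrays was left out (0.66 to 0.81, adjusted p up to 0.123), namely ND - Young replicates 1 to 4, ND/CR - Old replicates 2 to 4 and CR/ND - Old replicates 3 to 5. It was also lost with median-centred arrays (adjusted p = 0.0706) or the mean of the gene's probe sets (0.0697). With the run as a block it was kept without each array in turn (adjusted p of 0.000173 to 0.00161). The same block called the age difference of 0.53 ± 0.23 (adjusted p = 0.00704, against 0.174 without).

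Rtp4 read 8.66, 8.44, 8.05, 8.21 and 8.56 in ND - Young, 8.41, 8.18, 8.15, 8.94 and 9.00 in ND - Old, 7.95, 8.43, 8.77, 7.94 and 8.73 in ND/CR - Old, and 8.48, 8.43, 8.56, 9.19 and 9.12 in CR/ND - Old. The groups overlapped in every pair, and no group comparison was called. Xaf1 ranged from 7.47 to 7.70 in ND/CR - Old and from 7.07 to 7.44 in ND - Old without overlap, but the difference of 0.26 ± 0.11 was not called (adjusted p = 0.233). Ifi35 ranged from 8.07 to 8.51 over all arrays with no call.

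**Figure D3:**
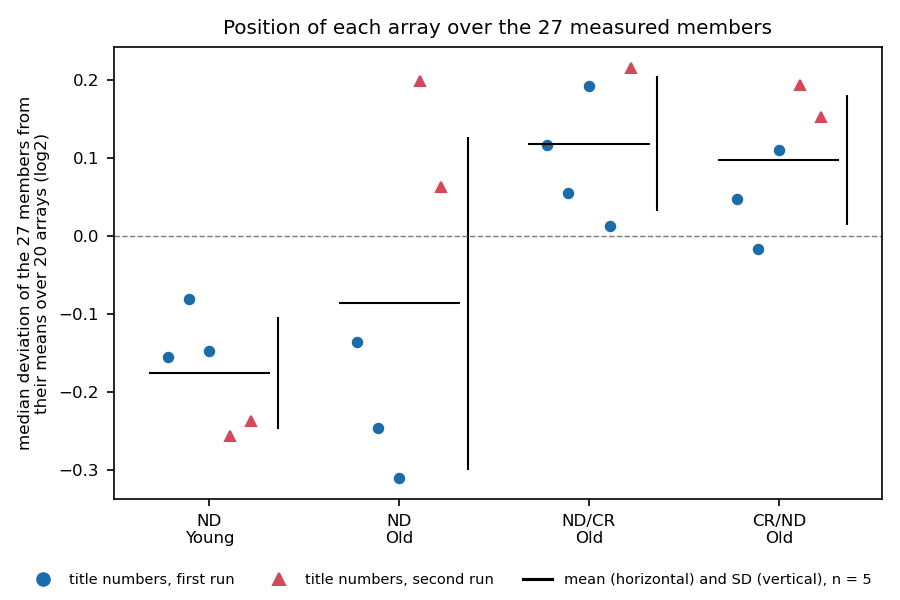
Median deviation of the 27 members from their own means over the 20 arrays (y axis, log2), one point per array by group and run of title numbers. ND - Young arrays lie between -0.26 and -0.08 and ND/CR - Old arrays between 0.01 and 0.22, while ND - Old arrays of run 1 lie between -0.31 and -0.14 and those of run 2 at 0.20 and 0.06.

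By the median deviation of the members from their own means, ND - Young arrays lay between -0.26 and -0.08, ND/CR - Old arrays between 0.01 and 0.22, and CR/ND - Old arrays between -0.02 and 0.19. The ND - Old arrays were at -0.14, -0.25 and -0.31 in run 1 and at 0.20 and 0.06 in run 2, whereas over all genes the median deviation stayed between -0.03 and 0.02 on every array. The interquartile range over all genes was smallest on ND - Old replicate 2 (2.60, the other arrays 2.73 to 2.98). That array was the highest of its group for 30.8% of all genes and the lowest for 24.7%. ND - Old replicate 4 was the highest of its group for 12 of 27 members (17.2% of all genes), and replicate 3 the lowest for 15 (14.2% of all genes). Parallel to this, the middle age difference of the members was 0.02 within run 1 and 0.44 within run 2, and the middle difference of ND/CR - Old from ND - Old was 0.33 and 0.09.

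The change of the age difference from run 1 to run 2 was tested as an interaction. No member passed, and few genes did (0.0117%). At an unadjusted p below 0.05 there were 13 of 27 members, against 1272 of 17097 genes, and 23 of 27 members had a larger age difference in run 2, by 0.50 for the middle member and 0.00 for the middle gene. The members share arrays and so do not count as separate evidence. The smallest p was that of Mx2 (1.02 ± 0.21, adjusted p = 0.131), followed by Ddx58 and Zbp1 (both 0.84, adjusted p = 0.147), and Ifit1 and Oasl2 had 1.22 ± 0.28 and 1.06 ± 0.25 (both adjusted p = 0.163). With groups held constant 6 members were higher in run 2 (Ifit1 by 1.06, Parp14 by 0.66, Ifih1 by 0.48, Rtp4 by 0.46, Trim25 by 0.39 and Stat2 by 0.37) and none lower, and the middle member differed by 0.04 between runs. What the runs stand for cannot be read from the labels, and their part in these differences was not tested beyond the block and the interaction.

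**Figure D4:**
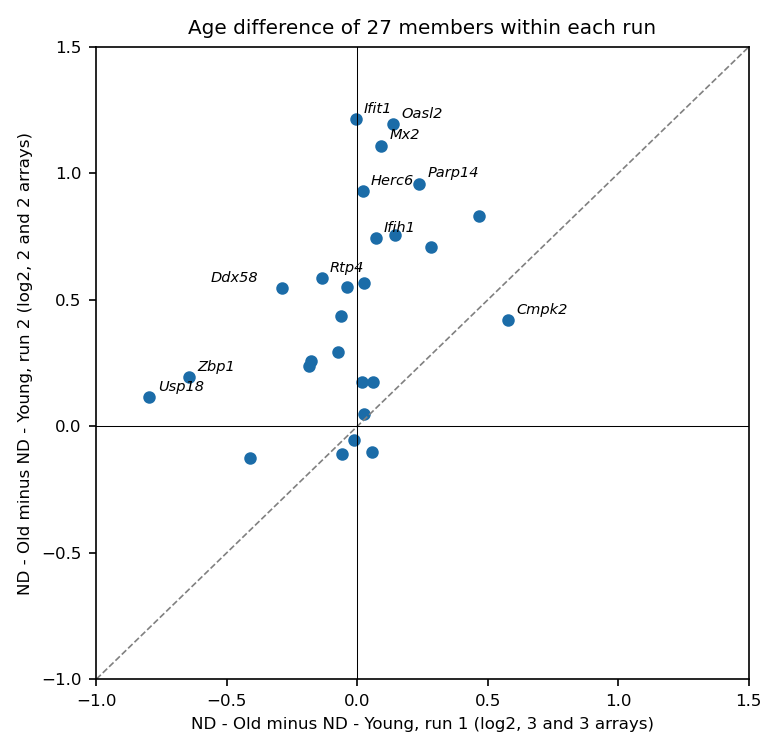
Difference of ND - Old from ND - Young in log2 level for each of the 27 members within run 1 of title numbers (x axis, 3 arrays a group) and within run 2 (y axis, 2 arrays a group). The middle member lies at 0.02 on the x axis and 0.44 on the y axis, and Ifit1 lies at -0.01 and 1.22.

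The counts of the gene lists that follow stand against the shares of all genes called, which were 4.45% rising and 6.49% falling with age and 1.57% and 0.819% in ND/CR - Old against ND - Old. They were 7.11% and 5.56% in ND/CR - Old and 3.22% and 3.82% in CR/ND - Old against ND - Young. With the run as a block, the shares called in either direction were 15.0% with age and 4.16% in ND/CR - Old against ND - Old. Against ND - Young the blocked shares were 15.2% in ND/CR - Old and 10.3% in CR/ND - Old. For CR/ND - Old against ND/CR - Old the blocked share was 0.702%. Upstream of the members, the interferon genes themselves were measured in part. Of 8 (Ifnb1, 6 interferon alpha genes and Ifng) none rose in any comparison, and Ifnb1 fell by 0.23 ± 0.07 in ND/CR - Old against ND - Young (4.34 to 4.12, adjusted p = 0.0294). Both of these Ifnb1 means were below the lower quartile of gene levels (4.54). Without a detection call, expression at such levels cannot be told from background. The mean level of the 8 lay between 4.72 and 5.00 on every array. Of 10 genes for receptors and signal transducers (kinases and Stat3), 2 rose with age, Tyk2 by 0.34 ± 0.08 and Jak2 by 0.41 ± 0.13 (adjusted p up to 0.0489). TYK2 is the kinase bound to the type I receptor, and JAK2 serves the interferon gamma receptor. In ND/CR - Old against ND - Young 3 rose, Tyk2 by 0.34 (adjusted p = 0.00887), Il10rb by 0.40 (0.0119) and Ifngr1 by 0.36 (0.0376), and in CR/ND - Old 1 rose, Il10rb by 0.46 (0.00795). None fell in these comparisons, while with the run as a block Ifngr2 fell with age by 0.39 (adjusted p = 0.0406) and by 0.43 in CR/ND - Old (0.0326). The old-against-old comparisons called no gene of either list, and Jak2 (0.36 lower in ND/CR - Old than in ND - Old, adjusted p = 0.173) had the smallest p among the receptor and signal transducer genes.

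Of 17 genes listed upstream of interferon, 3 rose with age and none fell. The list holds sensors and adaptors, the kinase genes Tbk1 and Ikbke and the transcription factor genes Irf3 and Irf5. It also holds Adar, Trex1, Samhd1 and Rnaseh2b, which are none of these. Ifi204, a DNA-binding sensor of the p200 family, rose by 1.23 ± 0.34 (adjusted p = 0.0214), Cgas, which makes the messenger that activates STING, by 0.31 ± 0.09 (0.0234), and Samhd1, which breaks down deoxynucleotides, by 0.33 ± 0.10 (0.0485). Against ND - Young 3 rose in ND/CR - Old, Ifi204 by 1.42 (adjusted p = 0.00715), Cgas by 0.36 (0.00800) and Irf3 by 0.49 (0.0148). In CR/ND - Old the 3 that rose were Samhd1 by 0.50 (adjusted p = 0.00429), Ifi204 by 1.42 (0.0123) and Cgas by 0.33 (0.0232). No gene of this list was called among the old groups, the smallest p being that of Rnaseh2b, 0.39 ± 0.10 higher in ND/CR - Old than in ND - Old (adjusted p = 0.0527, and called at 0.0397 with the run as a block). The block also called Myd88, an adaptor of Toll-like receptors, 0.39 higher in ND/CR - Old than in ND - Young (adjusted p = 0.0494).

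Of 14 negative regulators of interferon signalling, Rnf125 rose with age by 0.52 ± 0.14 (adjusted p = 0.0201) and Socs1, an inhibitor of the JAK kinases, fell by 0.38 ± 0.10 (5.35 to 4.97, adjusted p = 0.0140). Tnfaip3, which encodes the NF-kappa-B inhibitor A20, fell by 0.86 ± 0.23 in ND/CR - Old against ND - Old (10.60 to 9.74, adjusted p = 0.0484) and by 0.83 ± 0.23 against ND - Young (adjusted p = 0.0174). Trim21 rose by 0.74 ± 0.14 in ND/CR - Old (adjusted p = 0.00117) and by 0.60 ± 0.14 in CR/ND - Old (0.0107) against ND - Young. No regulator was called between CR/ND - Old and the other old groups. The run-adjusted fit added Nlrc5 with age (0.63 higher, adjusted p = 0.0255), Socs3 in ND/CR - Old (0.64, 0.00443), and both in CR/ND - Old (0.77 and 0.67, adjusted p up to 0.0134), each against ND - Young.

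A wider list of 44 other interferon-stimulated genes was counted in the same way. With age 5 rose and 1 fell. Sp100, a nuclear body protein, rose by 0.87 ± 0.16 (adjusted p = 0.00116), Samd9l by 0.70 ± 0.15 (0.00379), Trim30a by 0.75 ± 0.18 (0.00912), Oas1c by 0.65 ± 0.16 (0.0105) and Iigp1 by 0.64 ± 0.16 (0.0111), while Lgals9 fell by 0.63 ± 0.17 (8.70 to 8.07, adjusted p = 0.0158). In ND/CR - Old against ND - Old 2 rose and none fell, Ube2l6, the enzyme that loads ISG15, by 0.34 ± 0.07 (adjusted p = 0.0168) and Ifitm1 by 0.96 ± 0.24 (0.0405). Against ND - Young 15 of 44 rose in ND/CR - Old and 10 in CR/ND - Old, with none falling, where 7.11% and 3.22% of all genes rose. Those with the smallest p were Oas1c (1.21), Sp100 (1.15), Ifitm1 (1.41) and Oas1b (0.46) in ND/CR - Old, with adjusted p of 3.08e-05 to 0.000468, and Sp100 (1.13), Trim30a (1.11), Iigp1 (0.96) and Samd9l (0.81) in CR/ND - Old, with adjusted p of 0.000149 to 0.00169. CR/ND - Old against the other old groups called none. Ly6e had the smallest p against ND - Old (0.24, adjusted p = 0.694) and Ifitm1 against ND/CR - Old (-1.02, adjusted p = 0.0749, and called at 0.0273 with the run as a block). With the block 8 rose and 1 fell with age, 5 rose in ND/CR - Old against ND - Old, and 19 and 16 rose against ND - Young in ND/CR - Old and CR/ND - Old. In the same order, 15.0%, 4.16%, 15.2% and 10.3% of all genes were called in either direction with the block. The 3 added in ND/CR - Old against ND - Old were Oas1b (0.29), Oas1c (0.56) and Lgals9 (0.57), with adjusted p of 0.0422 to 0.0455.

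Genes better known as targets of interferon gamma moved in both directions. Of 24, 5 rose with age and 2 fell. Tgtp1, a GTPase against intracellular parasites, rose by 1.71 ± 0.30 (adjusted p = 0.000575), Irf8 by 0.64 ± 0.11 (0.000446) and Ifi47 by 0.85 ± 0.22 (0.0146), with Cd74 (0.48) and Igtp (0.58) also rising, and Gbp4 fell by 0.84 ± 0.13 (9.33 to 8.49, adjusted p = 0.000129) along with Socs1. In ND/CR - Old against ND - Old none rose and 2 fell, Irf8 by 0.59 ± 0.11 (adjusted p = 0.00725) and Cd74, the invariant chain of MHC class II, by 0.61 ± 0.15 (0.0276). Against ND - Young 5 rose and 1 fell in ND/CR - Old (Tgtp1 by 1.90, Irf1 by 0.45 and Igtp by 0.71 among them), and 7 rose and 1 fell in CR/ND - Old (Tgtp1 by 2.33, Ifi47 by 1.11 and Igtp by 0.86 among them). Gbp4 was the one that fell in each, by 0.76 and 0.74. With the run as a block 8 rose and 2 fell with age, and 4 fell in ND/CR - Old against ND - Old, adding the MHC class II genes H2-Aa (-0.52, adjusted p = 0.0465) and H2-Ab1 (-1.03, 0.0192). The block gave 7 rising in ND/CR - Old and 11 in CR/ND - Old against ND - Young, and H2-Ab1 1.18 higher in CR/ND - Old than in ND/CR - Old (adjusted p = 0.0240).

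The sort and other cell types were checked by marker lists. Of the genes for proteins sorted against, Ptprc (group means of 3.24 to 3.26), Kit (3.34 to 3.39), Pecam1 (5.50 to 5.70) and Epcam (5.06 to 5.11) were not called in any comparison, and Cd24a was at 6.73 in ND - Young and lower in each old group (differences of -1.17, -1.90 and -1.30, with adjusted p of 0.000691, 3.76e-06 and 0.000454). Among the fibroblast genes, group means were 12.83 to 13.33 for Col1a1, 11.01 to 11.30 for Cd34 and 5.71 to 6.20 for Pdgfra. Of this list of 8, Col1a1 and Cd34 fell with age, by 0.48 ± 0.08 (adjusted p = 0.000264) and 0.30 ± 0.09 (0.0303). Col1a1 was also lower than in ND - Young in ND/CR - Old (difference of -0.50, adjusted p = 0.000156) and in CR/ND - Old (-0.41, 0.00203), and Pdgfra was 0.49 higher with age in the run-adjusted fit only (adjusted p = 0.00701, against 0.0699 without). No gene of the list was called among the old groups. None of the plasmacytoid dendritic (6 genes), B (4), mast (6), neutrophil (4), keratinocyte (10), melanocyte (5), adipocyte (3), Schwann (2) or skeletal muscle (5) markers rose or fell in the 6 comparisons. Of 9 T and natural killer cell markers 1 was called, Thy1, which fibroblasts also carry (fell by 0.37 in ND/CR - Old against ND - Young, adjusted p = 0.00564). The mean of the 14 macrophage markers lay between 4.96 and 5.23 on every array, with 1 marker lower in each old group against ND - Young (Csf1r, by 0.92 to 1.20) and 1 higher in ND/CR - Old (Cd68, by 1.03, adjusted p = 0.0390). Also against ND - Young, 1 of 8 endothelial markers (Tek) and 1 of 5 mural markers (Kcnj8) were higher in all 3 old groups, by 1.02 to 1.63 and by 1.03 to 2.32, and Kcnj8 was 1.29 higher in ND/CR - Old than in ND - Old. Of 6 dendritic markers, H2-DMb2 was lower there (by 0.41, adjusted p = 0.0499). The mean of the 10 keratinocyte markers ranged from 5.90 to 7.79 over the ND - Old arrays and differed by 0.50 between the runs for the middle marker, with Dsp 1.43 and Sbsn 0.47 higher in run 2 (adjusted p of 0.0250 and 0.0344). The middle keratinocyte marker was 0.37 higher in CR/ND - Old than in ND - Old and 0.49 higher than in ND - Young, beside 0.17 and 0.37 for the middle member. With the run as a block, Cd68 was also higher with age (0.94, adjusted p = 0.000743) and in CR/ND - Old (0.90, 0.00174), and the endothelial Kdr fell with age by 0.91 (0.0207). The part of any of these in the members' differences was not tested.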

How the data were processed

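Sorted dermal fibroblasts of 20 mice (4 groups of 5) were hybridised to Affymetrix arrays. The authors deposited log2 values per probe set made with RMA (affy), which corrects background and quantile-normalises arrays, per the submitters' processing notes; versions are not given in the sources used here. Such normalisation makes the distributions of the arrays alike, so changes common to most genes are largely hidden. In the deposited values they were close but not equal, with array medians of 5.27 to 5.34 and lower quartiles of 4.11 to 4.25. Of 45141 probe sets, 28898 named 1 gene, 551 several and 15692 none in the platform annotation. Of those naming 1 gene, 28689 took the symbol that RefSeq (GRCm38.p6) gives their Entrez number, whether or not it differed. Each of 17097 genes took its probe set with the highest mean. limma 3.58.1 in R 4.3.3 (lmFit, eBayes) was fitted over all groups, with Benjamini-Hochberg adjustment over all genes, after being tested on simulated data. No 2 arrays were identical. Alternatives were the run of title numbers as a block or alone, array weights, other normalisation and probe set rules, filters, thresholds and leaving out each array; leaving out arrays with the run as a block and the run difference itself were added after seeing the data.

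The members and gene lists were chosen with earlier results of these data known. All measured members may be named, with values on every array for those past the threshold in any comparison, the F-test or the interaction and for the 5 of highest mean; where none passes, the 3 with the smallest p are named. Ifit1 is given on every array although outside that rule, chosen after its values were seen. Of the other lists up to 4 called genes per comparison are named; those beyond 4 with age in the wider interferon and interferon gamma lists, and genes called only with the run as a block, were named after their values were seen. Marker genes are named where called. Intervals are 95% and cover the spread between arrays, whose number limits the precision.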

Additional observations from a re-analysis of the deposited data

Results flagged for a closer look

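Within groups of 5 arrays, a single array stood far from the others of its group for 3 of the 108 combinations of member and group examined, by the gap to the nearest array as a share of the group's range (critical value 0.71). Chance alone marks about 1 in 20 groups. Rsad2 on ND - Young replicate 1 was at 7.02, with the next highest array at 6.35 (share 0.728). Ifitm3 on ND - Old replicate 3 was at 11.78, with the next lowest at 11.96 (share 0.783). Oas3 on ND - Old replicate 2 was at 5.49, with the next highest at 4.95 (share 0.871).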

How the results depend on the processing

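With the run of title numbers as a block, the members called were 6 with age (3 without) and 14 in the F-test (8 without), where 15.0% and 17.7% of all genes were. In a fit of run 1 alone they were 6 in ND/CR - Old against ND - Old, 1 in CR/ND - Old against ND - Old and 4 in CR/ND - Old against ND - Young (3, 0 and 9 with all arrays), against 4.65%, 0.129% and 4.65% of all genes. In run 2 alone they were 11 with age (6.14% of all genes) and 0 in ND/CR - Old against ND - Old (0.00585%). For the age comparison, keeping the genes above the lower quartile gave 5 (14.6% of the genes kept). For ND/CR - Old against ND - Old, testing every probe set gave 5 (2.97% of genes) and fitting only these 2 groups gave 1 (1.12%), and array weights gave 1 member (0 without, 1.37% of genes) in CR/ND - Old against ND/CR - Old. A threshold of 0.01 gave 1 with age, 0 in ND/CR - Old against ND - Old, 4 in CR/ND - Old against ND - Young and 5 in the F-test (6.02%, 0.573%, 3.47% and 6.66% of genes), and a threshold of 0.1 gave 5 in each of the first 2 (15.4% and 4.24%). Leaving out each array in turn gave 2 to 5 members with age (1 of 2 falling without ND - Young replicate 5 or ND - Old replicate 4), 1 to 4 in ND/CR - Old against ND - Old, 5 to 12 in CR/ND - Old against ND - Young and 0 to 2 for the interaction (1 without ND - Young replicate 2, 2 without ND - Old replicate 2). The sign within run 1 and run 2 was opposite to that over all arrays for 7 and 4 of 27 members with age, 6 and 5 in ND/CR - Old against ND - Old, 3 and 10 in CR/ND - Old against ND - Old, 3 and 8 in CR/ND - Old against ND/CR - Old, 0 and 4 in ND/CR - Old against ND - Young, and 3 and 3 in CR/ND - Old against ND - Young. Of the differences called under some setting, that with age became -0.0067 for Ifit1, -0.29 for Ddx58 and -0.14 for Rtp4 in run 1, and 0.12 for Usp18 and 0.20 for Zbp1 in run 2. Likewise, in run 2 ND/CR - Old minus ND - Old became -0.26 for Herc6 and -0.29 for Ddx58. With arrays left out, the age difference of Ddx58 ranged from -0.060 to 0.13 and the ND/CR - Old minus ND - Young difference of Ifit1 from -0.0375 to 0.55. The cause was not tested. No paired analysis was possible because the labels give no shared replicate numbers. Depth does not apply to arrays, and no signal over background is given with the deposited values.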
